A study of Mus musculus with 24 samples.

Results

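Wnt ligands, R-spondin and secreted Frizzled proteins were followed across brown and white fat cells in primary culture. The group holds 8 genes, namely the Wnt ligands Wnt4, Wnt5a, Wnt10b and Wnt11, the R-spondin Rspo1, and the secreted Frizzled-related proteins Sfrp1, Sfrp2 and Frzb. They were taken as every probe set whose single annotated gene symbol is one of these names. This gave 10 probe sets of the 12488 on the array, 3 of them for Wnt10b and 1 for each other gene. The array names 8252 genes through probe sets with 1 symbol.

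The study compared brown with white fat cells before and after differentiation, on 24 Affymetrix arrays of mouse cells. The groups were primary BAT cells collected 7 days after isolation (5 arrays, labelled differentiated), primary BAT cells at 4 days (5 arrays, labelled non differentiated), primary WAT cells at 7 days (6 arrays, labelled differentiated) and primary WAT cells at 4 days (8 arrays, labelled non differentiated). They are named here by cell type and day, and single arrays carry the number in their label. The labels give no strain, sex, age, fat depot or culture medium. Whether the arrays of one group stand for separate animals, separate cultures or repeats of one culture is not given, so the p-values measure only the spread between arrays, which may be technical. All brown arrays have lower numbers than the white arrays, and cell type and handling cannot be told apart.

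Wnt proteins are secreted ligands that bind Frizzled receptors, and in the canonical branch the co-receptors Lrp5 and Lrp6, after which beta-catenin enters the nucleus and acts with TCF and LEF factors on target genes. R-spondins bind Lgr receptors and keep Frizzled receptors at the cell surface, which raises the response to Wnt. Secreted Frizzled-related proteins carry a cysteine-rich domain like that of Frizzled and can bind Wnt proteins outside the cell. In mouse preadipocytes, canonical Wnt signalling is known to hold back adipocyte formation, and Wnt10b is the ligand best known for it.

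By the reference gene table (GRCm38.p6), Wnt4 lies at chr4:137277635-137299501 and Rspo1 on the same chromosome at chr4:124986401-125009102. Wnt5a lies at chr14:28504543-28527448, Wnt10b at chr15:98770712-98778206 and Wnt11 at chr7:98835084-98854747. Of the secreted Frizzled proteins, Sfrp1 lies at chr8:23411383-23449632, Sfrp2 at chr3:83765750-83774314 and Frzb at chr2:80411970-80447396. RefSeq promoter windows of GRCm38.p6, from 250 bases before to 50 bases after the transcript start, were found for 6 of the 8 genes, and not for Sfrp1 or Wnt5a. The windows of the 4 genes with a window and a difference between brown and white cells are printed 5′ to 3′ on the gene's own strand, with matches to the GC box motif in capitals. They are chr4:137277385-137277684 (plus strand) for Wnt4, chr4:124986180-124986479 (plus) for Rspo1, chr3:83766071-83766370 (plus) for Sfrp2 and chr2:80447347-80447646 (minus) for Frzb. The Sfrp2 window begins inside the gene as placed above, so the transcript start of a window can differ from the gene start.
Wnt4 promoter: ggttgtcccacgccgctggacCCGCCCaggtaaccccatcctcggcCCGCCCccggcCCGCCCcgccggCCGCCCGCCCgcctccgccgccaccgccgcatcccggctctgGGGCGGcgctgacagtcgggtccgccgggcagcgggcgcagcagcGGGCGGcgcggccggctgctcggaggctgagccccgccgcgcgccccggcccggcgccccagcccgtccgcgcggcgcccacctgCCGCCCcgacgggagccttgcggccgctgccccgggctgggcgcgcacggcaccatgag
Rspo1 promoter: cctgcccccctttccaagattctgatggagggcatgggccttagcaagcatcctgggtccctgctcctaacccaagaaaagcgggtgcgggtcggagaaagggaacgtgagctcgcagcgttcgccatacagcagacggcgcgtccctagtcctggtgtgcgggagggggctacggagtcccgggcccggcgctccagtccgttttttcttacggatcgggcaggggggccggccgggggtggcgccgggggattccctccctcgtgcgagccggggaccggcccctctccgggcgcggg
Sfrp2 promoter: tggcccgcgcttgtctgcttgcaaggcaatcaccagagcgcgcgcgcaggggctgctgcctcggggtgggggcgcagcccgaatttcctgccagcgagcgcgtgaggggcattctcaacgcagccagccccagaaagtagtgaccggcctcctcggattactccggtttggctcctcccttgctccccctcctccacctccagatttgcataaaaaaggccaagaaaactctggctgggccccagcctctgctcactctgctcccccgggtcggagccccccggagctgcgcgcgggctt
Frzb promoter: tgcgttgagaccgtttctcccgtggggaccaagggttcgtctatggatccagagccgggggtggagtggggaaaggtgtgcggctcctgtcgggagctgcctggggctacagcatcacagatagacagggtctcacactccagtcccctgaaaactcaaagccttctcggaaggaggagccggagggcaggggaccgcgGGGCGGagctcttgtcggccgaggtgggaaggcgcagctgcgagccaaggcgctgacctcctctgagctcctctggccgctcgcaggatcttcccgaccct

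The promoters were searched on both strands for a GC box (GGGCGG), a TCF/LEF motif (CTTTGAT) and a TATA box (TATAAA), counting overlapping matches. Among 32851 mouse promoter windows of the same length, 35.7% held a GC box, 3.73% a TCF/LEF motif and 13.6% a TATA box. The Wnt4 window held 8 GC box matches, 51 CpG dinucleotides and 84.3% G or C, against medians of 7 CpG and 52.7% G or C over all windows. The Frzb window held 1 GC box match, with 20 CpG and 64.7% G or C. Rspo1 (29 CpG and 69.0% G or C) and Sfrp2 (22 CpG and 66.0% G or C) held none of the 3 motifs. Among the members, the first of 2 Wnt11 windows alone held a TCF/LEF motif (1 match) and a TATA box (1 match), and the Wnt10b window held none of the 3. A match is a run of letters, and no binding was measured here.

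Signals are the deposited linear array intensities, scaled to a 2% trimmed mean of 150 per array. A signal under 8.21 (log2 3.04) was treated as at the floor, where values have no order. Probe sets were tested with limma if 5 or more arrays placed them higher than that array's 40th percentile, which left 8397 probe sets and 6 of the 10 of this group. Those 6 were Wnt4, Rspo1, Sfrp1, Sfrp2, Frzb and the Wnt10b probe set 92752_r_at. Wnt5a, Wnt11 and the Wnt10b probe sets 92750_s_at and 92751_i_at were too dim to be tested. Wnt4, Rspo1 and Frzb lay above the filter on white arrays alone, so each of them had to differ between the cell types to be tested at all.

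Wnt4, Rspo1, Sfrp1, Sfrp2 and Frzb were lower in brown than in white cells on both days. At day 7, 5 of the 6 tested probe sets were lower in brown cells (limma, adjusted p below 0.05) and 0 were higher, where 12.3% of all tested probe sets were lower and 25.2% differed in either direction. At day 4 the same count was 5 lower and 0 higher, where 12.2% of all were lower and 23% differed. These counts are not support for a shared direction, since 3 of the 5 passed the filter through white cells alone. Wnt10b 92752_r_at was the tested probe set that passed the test on neither day. In bulk RNA, fewer cells of a type and less RNA per cell cannot be told apart.

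Wnt4 (103238_at), a ligand that can act through beta-catenin or through non-canonical branches depending on the tissue, was near the floor on every brown array. On brown day 7 arrays its signal was 4.53, 7.08, 4.86, 4.72 and 4.47, against a lowest, median and highest signal of 216, 241 and 302 on white day 7 arrays. On brown day 4 arrays it was 2.998, 4.92, 4.95, 5.22 and 8.57, against 27.1, 194 and 280.4 on white day 4 arrays. Brown and white arrays did not overlap on either day, which held for 9.42% of all tested probe sets at day 7 and 3.93% at day 4 in the direction lower in brown. All brown day 7 arrays were at the floor, so Wnt4 was at least 30.4-fold lower in brown than in white cells at day 7 (log2 difference -4.93 ± 0.36 SE, limma adjusted p = 1.14e-10). At day 4 the fitted log2 difference was -4.20 ± 0.34 (adjusted p = 4.81e-10), an 18.4-fold lower signal whose size depends on the floor, since 4 of the 5 brown arrays were at it. With the floor set at the 40th percentile of all values in place of the 20th, the log2 differences were -3.11 at day 7 and -2.41 at day 4. A called log2 difference of -3 or lower was seen for 0.286% of all tested probe sets at day 7 and 0.262% at day 4.

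Within white cells, Wnt4 had a mean log2 signal of 7.97 ± 0.19 at day 7 (SD, n = 6) and 7.25 ± 1.06 at day 4 (SD, n = 8). The difference of 0.71 ± 0.32 did not pass the test (limma adjusted p = 0.121, where 19% of all tested probe sets were called). White day 4 array 41, at 27.1, stood apart from the other 7 arrays of its group, which lay between 129.6 and 280.4. Without that array the day 7 minus day 4 difference in white cells was 0.35, and the brown minus white difference at day 4 was -4.56.

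**Figure D1:**
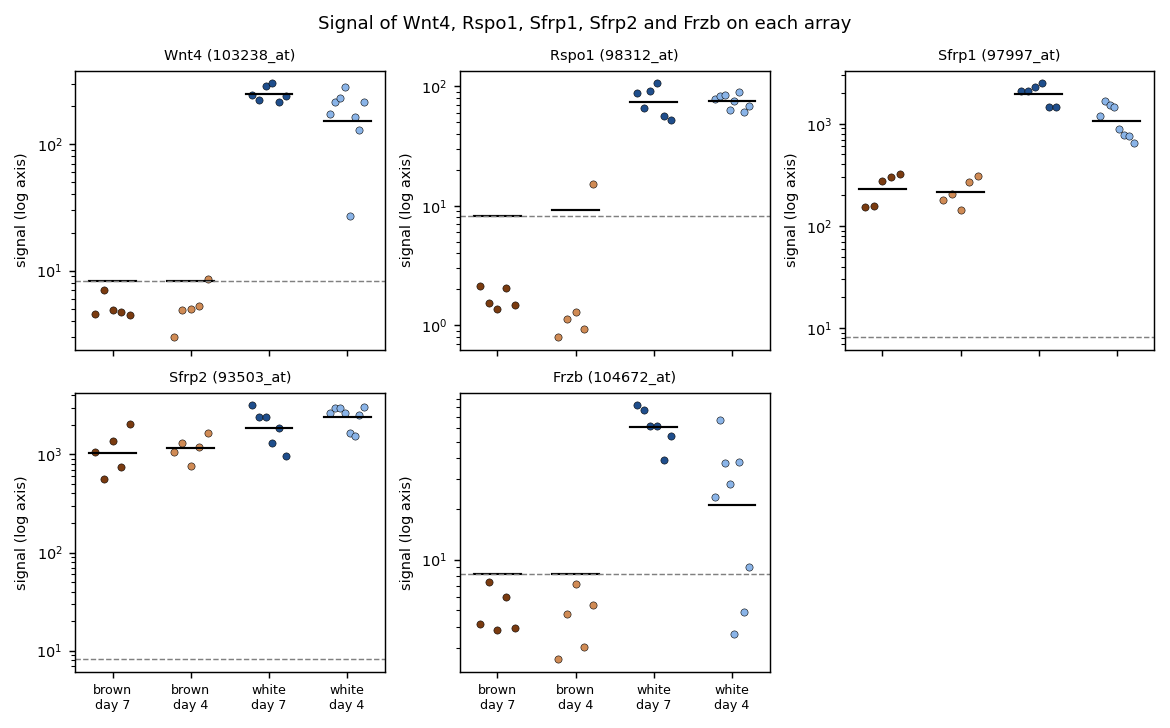
Signal of Wnt4, Rspo1, Sfrp1, Sfrp2 and Frzb on each of the 24 arrays, on a log axis, with 1 point per array. Black bars are group means of the log2 signal after values under the floor (dashed line, 8.21) were raised to it. Wnt4, Rspo1 and Frzb lie at or near the floor on brown arrays, and Sfrp1 and Sfrp2 are well above it in all 4 groups.

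Rspo1 (98312_at), the R-spondin of the group, was at the floor on 9 of the 10 brown arrays and on no white array. On brown day 7 arrays the signal was 2.12, 1.55, 1.37, 2.05 and 1.48, against a lowest, median and highest of 51.9, 77.4 and 106 on white day 7 arrays. On brown day 4 arrays it was 0.799, 1.12, 1.30, 0.929 and 15.2, against 60.8, 77.1 and 90.1 on white day 4 arrays. Brown array 19 was the brown array above the floor, and it too lay under every white array. Rspo1 was at least 9.03-fold lower in brown than in white cells at day 7 (log2 difference -3.18 ± 0.23, limma adjusted p = 9.93e-11). At day 4 the log2 difference was -3.01 ± 0.21 (adjusted p = 4.19e-11), with a size that depends on the floor. Its size moved with the floor on both days, to -5.46 at day 7 and -5.42 at day 4 with no floor, and to -1.36 at day 7 and -1.37 at day 4 with the higher floor. White day 7 and white day 4 arrays overlapped, and their difference of -0.01 ± 0.20 (95% interval -0.43 to 0.40, adjusted p = 0.972) did not pass the test.

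Sfrp1 (97997_at), a secreted Frizzled-related protein, was well above the floor on every array and lower in brown cells. Its signal on brown day 7 arrays was 154, 158, 278, 299.5 and 323, against a lowest, median and highest of 1449.98, 2094 and 2484 on white day 7 arrays. On brown day 4 arrays it was 179, 206, 144, 271 and 305, against 654, 1045 and 1653 on white day 4 arrays. The lowest white array was above the highest brown array on both days. The signal was 8.39-fold lower in brown cells at day 7 (log2 difference -3.07 ± 0.26, limma adjusted p = 1.72e-09) and 4.96-fold lower at day 4 (-2.31 ± 0.24, adjusted p = 7.01e-08). Over the other settings tried, leaving out single arrays apart, these differences stayed between -3.11 and -2.77 at day 7 and between -2.50 and -2.22 at day 4. No array was near the floor, so the Sfrp1 difference between cell types was measured on both sides.

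Sfrp1 was also higher at day 7 than at day 4 in white cells, by 0.87 ± 0.23 on the log2 scale (1.83-fold, limma adjusted p = 0.00849), although the arrays of the 2 days overlapped. White day 4 arrays 41, 42, 45 and 51 had the lowest signals of their group (892, 775, 766 and 654) and white day 7 arrays 43 and 44 the lowest of theirs (1465 and 1449.98). What the array numbers mean is not given. Fibroblast and matrix markers had their lowest sums on the same arrays as Sfrp1. Of 10 such markers 5 were higher and 0 lower at day 7 in white cells, where 8.36% of all tested probe sets were higher. Their summed signal was 17876 to 26563 on white day 4 arrays 41, 42, 45 and 51, against 29177 to 40179 on the other 4. On white day 7 arrays it was 36054 on array 43 and 40376 on array 44, close to the 42114 to 43547 of the others. Their part in the Sfrp1 difference was not tested. A fit that also holds the Gapdh 3′ to 5′ control ratio, a sign of RNA quality, gave 0.62 (adjusted p = 0.558). That ratio nearly follows the day in white cells, so the fit cannot tell ratio and day apart. In brown cells the day 7 minus day 4 difference was 0.11 ± 0.27 (95% interval -0.43 to 0.66, adjusted p = 0.851). In order of mean log2 signal, white day 7 (10.92) stood above white day 4 (10.05), brown day 7 (7.85) and brown day 4 (7.74), and the last pair of neighbours did not differ beyond their spread. The difference between the brown and the white change was -0.76 ± 0.35 and did not pass the test (unadjusted p = 0.0395, adjusted p = 0.592).

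Sfrp2 (93503_at), the other Frizzled-related protein with a high signal in all groups, differed less between the cell types. Its signal on brown day 7 arrays was 1054, 565, 1369, 737 and 2028, against a lowest, median and highest of 965, 2117 and 3158 on white day 7 arrays. On brown day 4 arrays it was 1049, 1301, 769.6, 1183 and 1665, against 1555, 2636 and 3054 on white day 4 arrays. Brown and white arrays overlapped on both days, at day 4 through the single brown array 19 at 1665. Sfrp2 was 2.10-fold lower in brown cells at day 4 (log2 difference -1.07 ± 0.28, limma adjusted p = 0.00572).

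At day 7 Sfrp2 was 1.79-fold lower in brown cells (-0.84 ± 0.29, limma adjusted p = 0.0351), a call that rests on single arrays. It ended without brown day 7 array 07 (-0.85, adjusted p = 0.0600), 08 (-0.62, adjusted p = 0.134) or 12 (-0.72, adjusted p = 0.0987). It also ended without white day 7 array 35 (-0.69, adjusted p = 0.0933), 36 (-0.77, adjusted p = 0.0759) or 39 (-0.77, adjusted p = 0.0755). The Sfrp2 call likewise ended with arrays centred on their median (-0.77, adjusted p = 0.0655), with no filter on low values (adjusted p = 0.0779), with no intensity trend (adjusted p = 0.0516) and with only the 2 groups in the fit (adjusted p = 0.0650). The change between days did not pass the test in brown (-0.15 ± 0.31, adjusted p = 0.820) or in white cells (-0.38 ± 0.26, adjusted p = 0.331). In order of mean log2 signal, white day 4 (11.25) came before white day 7 (10.86), brown day 4 (10.18) and brown day 7 (10.02), with no difference past the test within a cell type.

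Frzb (104672_at), a secreted Frizzled-related protein known from cartilage, was at the floor on all 10 brown arrays. Its signal was 4.15, 7.39, 3.84, 6.03 and 3.93 on brown day 7 arrays and 2.58, 4.79, 7.21, 3.05 and 5.40 on brown day 4 arrays. On white day 7 arrays the lowest, median and highest were 38.8, 62.2 and 82.0, and on white day 4 arrays 3.65, 25.8 and 67.1. Brown and white arrays did not overlap at day 7, while at day 4 white arrays 41 and 45 were at the floor as well. Frzb was at least 7.43-fold lower in brown than in white cells at day 7 (log2 difference -2.89 ± 0.43, limma adjusted p = 1.82e-05). At day 4 the fitted log2 difference was -1.36 ± 0.41 (adjusted p = 0.0169), which is no bound, since 2 white arrays were raised to the floor too. The day 4 call ended with the higher floor (-0.25, adjusted p = 0.343) and with only the 2 groups in the fit (adjusted p = 0.0735), and with no floor the difference was -2.05 (adjusted p = 0.00882). At day 7 the higher floor gave -1.07, with the call kept.

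Frzb was higher at day 7 than at day 4 in white cells, by 1.54 ± 0.39 (2.90-fold, limma adjusted p = 0.00677), with overlapping arrays and a size that depends on the floor (0.83 with the higher floor). Together with Sfrp1 it made 2 of 6 tested probe sets higher at day 7 in white cells and 0 lower, where 8.36% of all tested probe sets were higher and 19% changed. In brown cells Wnt4, Rspo1 and Frzb were at the floor on 9, 9 and 10 of the 10 arrays, so neither a change between the days nor its difference from the white change can be read for them. Of the other 3 tested probe sets (Sfrp1, Sfrp2 and Wnt10b 92752_r_at), 0 changed between the days in brown cells by limma (0 also at an unadjusted p below 0.05), where 12.1% of all tested probe sets changed. For these 3, 0 differences between the brown and the white change passed, with 1 at an unadjusted p below 0.05 (Sfrp1), where 0.214% of all tested probe sets passed.

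**Figure D2:**
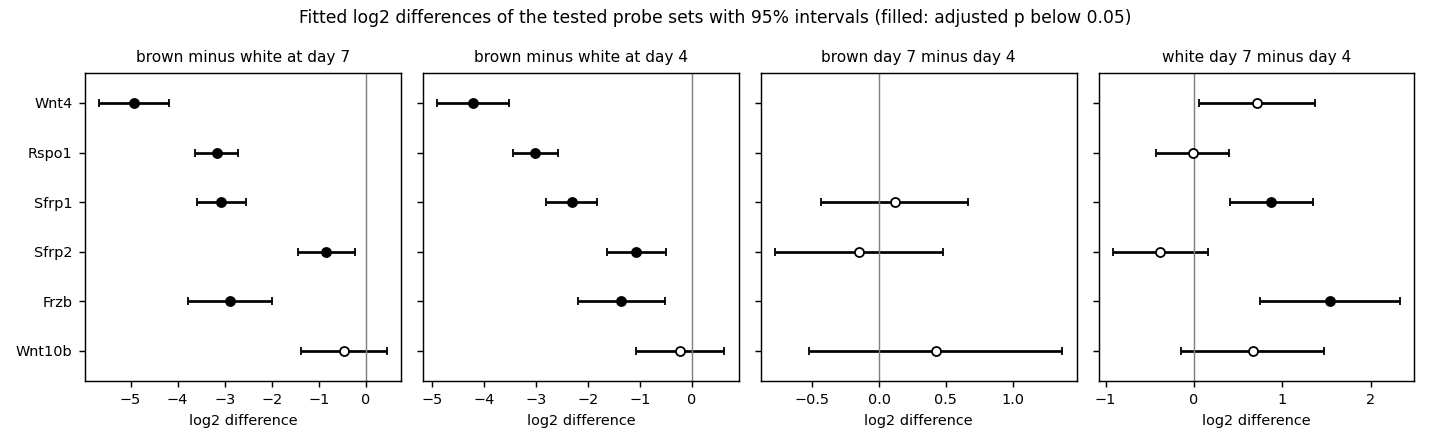
Fitted log2 differences of the 6 tested probe sets in 4 comparisons, with 95% intervals as bars and filled points where the adjusted p is below 0.05. Wnt4, Rspo1, Sfrp1, Sfrp2 and Frzb lie left of 0 in both brown minus white panels, and Sfrp1 and Frzb lie right of 0 between the days in white cells. Wnt4, Rspo1 and Frzb are left out of the panel of brown cells by day, where at most 1 of the 10 brown arrays is above the floor.

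The signs of RNA quality moved with the white day 7 group. The ratio of the Gapdh 3′ to the Gapdh 5′ control signal, which grows when RNA is broken or copied short from its 3′ end, averaged 0.889 ± 0.0379 in brown day 7 (SD, n = 5), 0.884 ± 0.0825 in brown day 4 (SD, n = 5), 1.36 ± 0.204 in white day 7 (SD, n = 6) and 0.943 ± 0.0955 in white day 4 (SD, n = 8). White day 7 ratios ran from 1.09 to 1.54, against 0.841 to 1.10 on white day 4 and 0.854 to 0.942 on brown day 7 arrays. The ratio thus nearly follows these groups, and a fit cannot tell it apart from the day or, at day 7, from the cell type. With this ratio as a covariate, the white day 7 minus day 4 difference of Sfrp1 was 0.62 (limma adjusted p = 0.558) and that of Frzb 1.17 (adjusted p = 0.506), and 0 of 6 members passed. In that fit 0.441% of all tested probe sets passed between the white days. Between brown and white cells at day 7 the same fit left Wnt4, Rspo1 and Sfrp1 lower in brown cells, while Frzb was at -2.48 (adjusted p = 0.0718) and Sfrp2 at -0.11 (adjusted p = 0.949), where 3.26% of all passed. At day 4 all 5 members with a call kept it with the covariate. Why calls were lost in this fit was not tested.

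**Figure D3:**
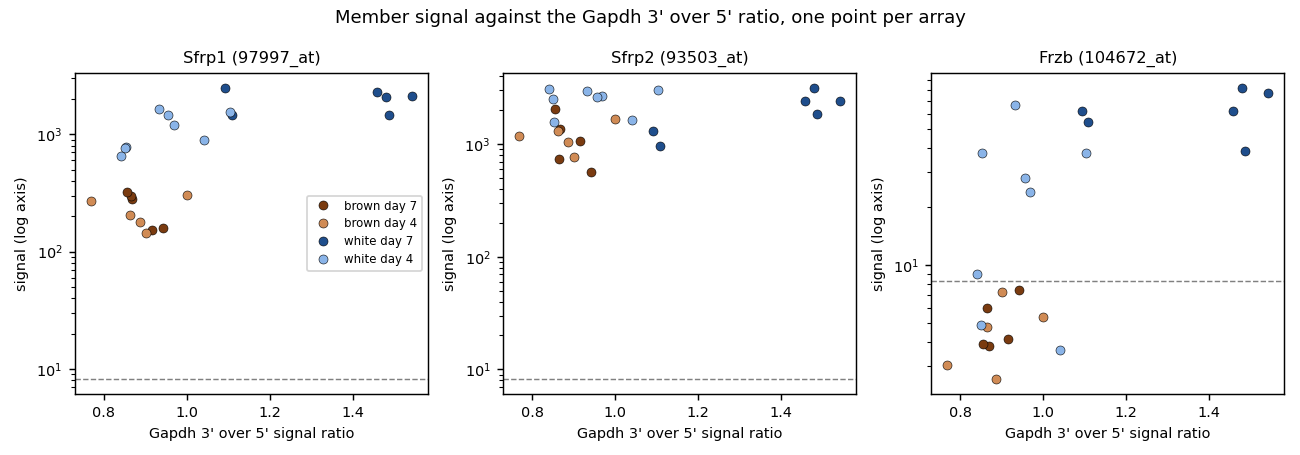
Signal of Sfrp1, Sfrp2 and Frzb (log axis) against the Gapdh 3′ over 5′ signal ratio, 1 point per array, with the floor as a dashed line. White day 7 arrays have ratios between 1.09 and 1.54, while brown arrays lie between 0.769 and 0.999, and Sfrp1 is higher on every white array than on any brown array at overlapping ratios.

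Wnt10b, the ligand known to hold back mouse adipocyte formation, was close to the floor in all groups. The tested probe set 92752_r_at gave 13.8, 18.8, 23.3, 14.01 and 33.2 on brown day 7 arrays and 26.2, 18.1, 6.72, 8.04 and 20.2 on brown day 4 arrays. Its lowest, median and highest signals were 17.8, 26.7 and 40.4 on white day 7 arrays and 5.996, 14.9 and 42.5 on white day 4 arrays. All 4 groups overlapped. The brown minus white differences were -0.47 ± 0.44 at day 7 (95% interval -1.37 to 0.44, limma adjusted p = 0.484) and -0.23 ± 0.42 at day 4 (-1.08 to 0.63, adjusted p = 0.751). The day 7 minus day 4 differences were 0.42 ± 0.46 in brown cells (-0.52 to 1.37, adjusted p = 0.6253) and 0.66 ± 0.39 in white cells (-0.15 to 1.47, adjusted p = 0.257). Each of these intervals includes a difference of 2-fold in 1 direction, so such differences are not excluded. Of the other Wnt10b probe sets, 92750_s_at was at the floor on 23 of 24 arrays, the exception being white day 7 array 39 at 11.2, and 92751_i_at ran from 3.38 to 21.3 over all arrays.

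Wnt5a (99390_at), a ligand of the non-canonical branches, was dim in every group and was not tested. Its signal was 6.72, 6.13, 13.4, 4.65 and 8.88 on brown day 7 arrays and 12.6, 16.2, 8.94, 20.4 and 6.78 on brown day 4 arrays. The lowest, median and highest were 4.87, 14.1 and 18.1 on white day 7 arrays and 7.28, 26.8 and 33.98 on white day 4 arrays. Of the 24 arrays, white day 4 held the highest values, and every pair of groups overlapped. With the filter on low values taken off, which gave 12422 tested probe sets, the white day 7 minus day 4 difference was -0.79 ± 0.28 (adjusted p = 0.0754) and the brown minus white difference at day 4 was -0.87 ± 0.30 (adjusted p = 0.0536), and neither passed. Wnt11 (103490_at), a ligand also tied mainly to non-canonical signalling, was at the floor on 16 of 24 arrays. Its highest signals were 46.5 on brown day 4 array 19 and 29.0 on brown day 4 array 09, and no group was above the floor on all its arrays.

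**Figure D4:**
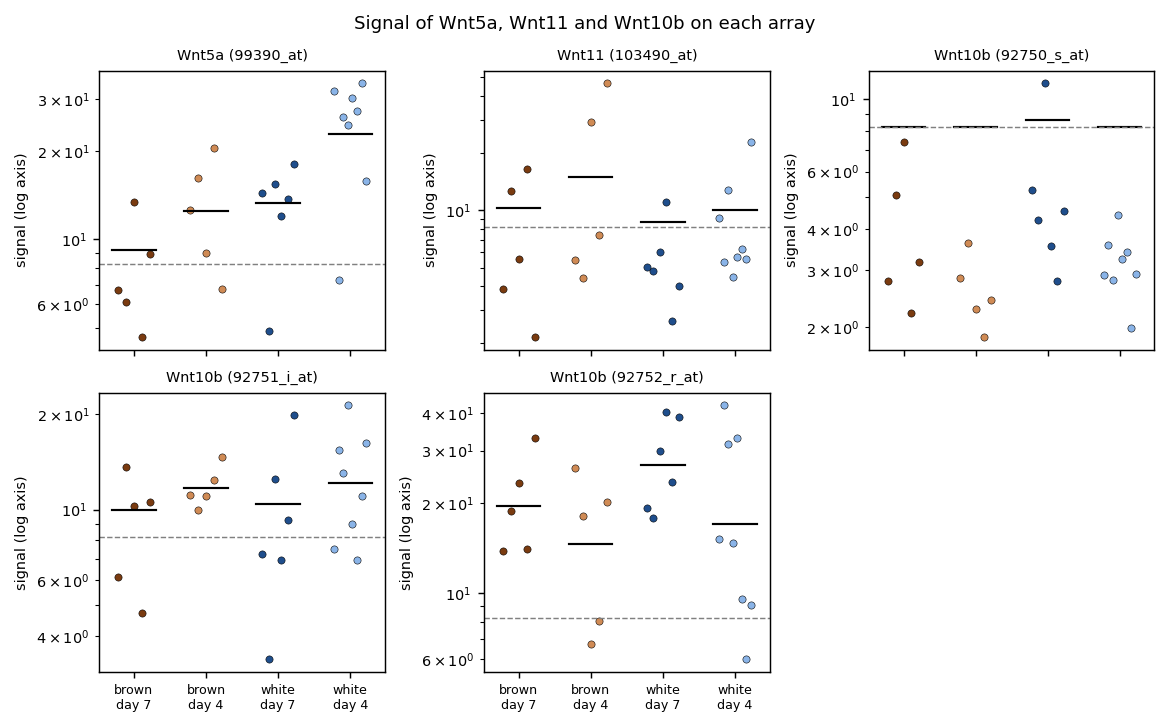
Signal of Wnt5a, Wnt11 and the 3 Wnt10b probe sets on each array (log axis), with bars for group means of the floored log2 signal and the floor of 8.21 as a dashed line. Signals stay under 50, most groups reach the floor, and all groups overlap.

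The suffixes of the 3 Wnt10b probe sets mark sets that depart from the platform's standard choice of probes, and levels of different probe sets were not compared. The other 7 genes have 1 probe set each, so no second reading of them was made.

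The members were also set against each other, as a description. Over all 24 arrays, Pearson's r of log2 signal was 0.949 between Wnt4 and Rspo1, 0.936 between Wnt4 and Sfrp1 and 0.931 between Rspo1 and Sfrp1. On the 14 white arrays, after each group's mean was taken off, the same pairs had 0.0919, 0.371 and 0.492. The closest pair within white cells was Sfrp1 with Frzb, at 0.718, and both genes were read on the same arrays, which differ in the Gapdh ratio. Points of 1 cell type may also share their handling, which is not given.

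The genes whose pattern over the 24 arrays was most like each member were taken from 6275 candidates by Pearson's r. Rspo1 was closest to Tcf21 (r = 0.990), a transcription factor known in white fat precursors, and then to Wt1 (0.974), a factor of visceral mesothelium and white fat precursors, and Dhrs3 (0.969), a retinal reductase. Wnt4 was closest to Tcf21 (0.962), Dhrs3 (0.955) and the adhesion receptor gene Adgrd1 (0.954). Tcf21 averaged 8.99 ± 0.917 in brown day 7 and 11.5 ± 7.57 in brown day 4 (SD, n = 5 each), against 316 ± 86.4 in white day 7 (SD, n = 6) and 324 ± 63.6 in white day 4 (SD, n = 8). Sfrp1 was closest to Arid2 (0.961), Mrvi1 (0.960) and Zbtb20 (0.954), and Frzb to Scel (0.954), Sipa1l2 (0.926) and Ro60 (0.926). Sfrp2 and Wnt10b had looser neighbours, led by Aldh1a2, a retinoic acid synthesis enzyme, for Sfrp2 (0.847) and by Abhd17a for Wnt10b (0.737). The 24 points of each correlation fall into brown and white arrays, which differ for most of these genes.

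Markers of other cell types also differed between the cultures. Of the 10 fibroblast and matrix markers, 8 were lower and 1 higher in brown cells on both days, with summed signals of 15937 to 25717 in brown day 7, 9800 to 12933 in brown day 4, 36054 to 43547 in white day 7 and 17876 to 40179 in white day 4. Of 4 tested mesothelial and epithelial markers, Wt1 was lower in brown cells on both days (log2 difference -2.28 ± 0.21 at day 7 and -2.83 ± 0.20 at day 4) and Krt19 was higher in brown cells at day 4. Their summed signal over the 9 markers on the array was 173 to 291 in brown day 7, 256 to 351 in brown day 4, 297 to 396 in white day 7 and 269 to 706 in white day 4. The mesothelial marker Msln was at the floor on all brown arrays, and Epcam at the floor on all brown day 7 and white day 4 arrays. The smooth muscle and pericyte list had 5 of 11 tested markers lower in brown cells on each day, with 4 higher at day 7 and 0 higher at day 4. Of 11 tested macrophage markers, 6 were lower in brown cells at day 7 and 3 at day 4, and of 7 tested endothelial markers 4 were higher in brown cells on each day. Of 9 tested striated muscle markers, 3 were higher and 1 lower in brown cells at day 7, and 6 were higher and 0 lower at day 4. Their summed signal was 942 to 1371 in brown day 7, 1425 to 2679 in brown day 4, 709 to 1231 in white day 7 and 570.5 to 1024 in white day 4, and Myf5 was at the floor in all groups. The part of these cell types in the values of Wnt4, Rspo1, Sfrp1, Sfrp2 and Frzb was not tested. Without white day 4 arrays 45 and 51, which had the highest mesothelial sums (611 and 706), the counts of members called stayed the same in all comparisons. That leaves the day 7 groups as they were and the other white day 4 arrays at sums of 269 to 462. It is thus no test of the part of mesothelial cells. Of 5 tested brown adipocyte markers, 5 were higher in brown cells on both days, where 12.8% of all tested probe sets were higher at day 7 and 10.8% at day 4. No white array had Zic1 above the floor. Such markers may have passed the filter through brown arrays alone, so the count is no check of the labels. Of 6 tested adipocyte markers, 2 rose from day 4 to day 7 in brown cells and 4 in white cells, and 0 fell. Of all tested probe sets 12.1% changed between the days in brown cells and 19% in white cells. The adipocyte sum was 13230 to 15394 in brown day 7 and 8155 to 13110 in brown day 4. In white cells it was 13875 to 19138 at day 7 and 6204 to 11497 at day 4. Arrays labelled non differentiated thus already held adipocyte marker signal.

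The rest of the Wnt pathway was read from 6 gene lists, and 49 calls of 29 genes are given. With the Gapdh ratio as a covariate 24 of these calls ended, namely all 13 between the white days and 11 between brown and white cells at day 7, where Rspo2, Igfbp4, Fzd2 and Ccnd1 kept theirs. In both comparisons the ratio nearly follows the groups, and why the calls ended was not tested. Among 6 tested ligands and R-spondins outside the group, of 11 on the array, Rspo2 was the gene that passed a test. Rspo2 was higher in brown cells and lay above the filter on brown arrays alone, as Rspo1 did on white arrays alone. Both genes thus had to differ between the cell types to be tested, and their opposite directions are no support for a contrast. The Rspo2 signal was 40.1 to 55.4 in brown day 7 and 16.2 to 31.9 in brown day 4, against 2.23 to 13.3 in white day 7 and 2.54 to 18.5 in white day 4. Brown arrays were all above white arrays at day 7 and overlapped with them at day 4. Rspo2 was higher in brown cells by 2.32 ± 0.29 at day 7 (limma adjusted p = 1.37e-06) and by 1.11 ± 0.27 at day 4 (adjusted p = 0.00394), sizes that depend on the floor (0.73 at day 7 and 0.04, adjusted p = 0.801, at day 4 with the higher floor). Its rise at day 7 in brown cells (0.96 ± 0.30, adjusted p = 0.0359) ended without any 1 of brown day 7 arrays 07, 08, 11 and 12 or brown day 4 arrays 09 and 10, with a highest adjusted p of 0.117. The median brown minus white difference of the 6 genes was 0.19 at day 7 and 0.07 at day 4, against 0.00 and 0.01 over all tested probe sets.

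Of 4 tested secreted inhibitors and modulators outside the group, 3 were lower in brown cells at day 7 and 2 at day 4, and 0 were higher, with a median of -1.08 at day 7 and -0.86 at day 4, where 12.3% of all tested probe sets were lower at day 7 and 12.2% at day 4. Igfbp4, a binding protein of insulin-like growth factors that can also block Wnt receptors, was lower in brown cells, with log2 differences of -1.41 ± 0.12 at day 7 and -2.04 ± 0.12 at day 4. The glypicans Gpc3 (-1.88 ± 0.27) and Gpc4 (-0.74 ± 0.18), cell surface proteoglycans, were lower in brown cells at day 7, and Dkk3, a Dickkopf family protein, at day 4 (-1.07 ± 0.24). Between the days, Dkk3 (1.27 ± 0.27) and Igfbp4 (0.55 ± 0.13) were higher at day 7 in brown cells. In white cells Gpc3 (0.79 ± 0.24) and Dkk3 (0.77 ± 0.23) were higher at day 7, the Gpc3 call ending without array 39 or 40 of day 7 or array 45 of day 4 (adjusted p at most 0.0664) and the Dkk3 call without array 40 of day 7 (adjusted p = 0.0609).

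Of 12 tested genes of Wnt secretion and receptors, the receptor Fzd2 (-1.25 ± 0.18 at day 7, -0.97 ± 0.17 at day 4) and the co-receptor Ptk7 (-1.77 ± 0.29 at day 7, -1.73 ± 0.28 at day 4) were lower in brown cells on both days. Lrp5 was higher in brown cells (1.52 ± 0.37 at day 7, 1.14 ± 0.35 at day 4), a call that ended with the higher floor (0.12 at day 7 and 0.14 at day 4). It passed the filter with no array to spare. With single arrays left out it was still tested in 8 of 11 fits at day 7 and 11 of 13 at day 4. The filter may thus have set the Lrp5 difference in advance, and it is no support for a contrast. Wls, which carries Wnt proteins to the cell surface, was lower in brown cells at day 4 (-0.53 ± 0.16), though not without brown day 4 array 19 (adjusted p = 0.0734). Fzd2 was lower at day 7 than at day 4 in brown (-0.81 ± 0.19) and in white cells (-0.52 ± 0.16), the last call ending without white day 7 array 36 or 43 (adjusted p at most 0.0744). Lrp6 was higher at day 7 in white cells (0.82 ± 0.24).

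Inside the cell, 3 of 22 tested beta-catenin pathway genes differed between brown and white cells at day 7 and 3 at day 4, where 25.2% of all tested probe sets differed at day 7 and 23% at day 4. The co-repressor Tle3 was lower in brown cells on both days (-0.77 ± 0.13 at day 7, -0.56 ± 0.12 at day 4), the acetyltransferase Crebbp at day 7 (-2.85 ± 0.58, but -1.37 with the higher floor and -0.35, adjusted p = 0.898, in the fit with the Gapdh covariate), and the kinase Csnk1e (-1.40 ± 0.27) and the factor Tcf7l1 (-0.71 ± 0.20) at day 4. Csnk1d was higher in brown cells at day 7 (0.95 ± 0.16). Ctnnb1, which encodes beta-catenin, was higher at day 7 in brown cells (0.53 ± 0.16), though not without brown array 12 or 19 (adjusted p at most 0.0945). In white cells Csnk2a1 (1.11 ± 0.28) was higher at day 7 and Csnk1d (-0.90 ± 0.14), Tax1bp3 (-0.59 ± 0.12) and Dvl2 (-0.51 ± 0.15) were lower, Dvl2 not without array 44 (adjusted p = 0.0703).

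Of 17 tested genes known as Wnt targets in some tissues, 4 were higher and 3 lower in brown cells at day 7, and 4 higher and 1 lower at day 4, where 12.8% of all tested probe sets were higher at day 7 and 10.8% at day 4. Ccnd1, a G1 cyclin, was higher in brown cells (1.23 ± 0.19 at day 7, 1.003 ± 0.18 at day 4), as were the matrix protein gene Ccn5 (1.81 ± 0.32 at day 7, 0.98 ± 0.30 at day 4) and Fosl1 (1.40 ± 0.47 at day 7, 1.60 ± 0.45 at day 4). The day 4 call of Ccn5 ended without brown array 06 or 10 (adjusted p at most 0.0838) and the day 7 call of Fosl1 without brown array 07, 11 or 22 or white array 35 (adjusted p at most 0.0853). Fgf18, a fibroblast growth factor, was lower in brown cells (-1.98 ± 0.41 at day 7, -2.41 ± 0.39 at day 4), with -1.26 at day 7 and -1.54 at day 4 with the higher floor. Id2 was lower at day 7 in brown (-1.16 ± 0.31, though not without array 08, adjusted p = 0.0610) and in white cells (-0.999 ± 0.26), and Ccn4 was higher at day 7 in white cells (1.26 ± 0.25). Fst, which encodes the activin-binding protein follistatin, was lower at day 7 in white cells (-0.74 ± 0.26), a call that ended without any 1 of white day 7 arrays 36, 40, 43 and 44 or white day 4 arrays 33, 37, 38, 41 and 45 (adjusted p at most 0.0996). The list thus held calls in both directions between brown and white cells on both days.

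Of 13 tested genes of the planar polarity and calcium branches, 1 differed between brown and white cells on each day, where 25.2% of all tested probe sets differed at day 7 and 23% at day 4. The cadherin Celsr2 was higher in brown cells at day 4 (0.99 ± 0.29), and Nfatc1 at day 7 (0.87 ± 0.32). The Nfatc1 call ended with the higher floor, at which no difference was left (adjusted p = 1), and without any 1 of brown day 7 arrays 07, 08, 11 and 12 or white day 7 arrays 39, 40, 43 and 44 (adjusted p at most 0.109). In white cells Rock1 was higher (0.73 ± 0.25) and Nfatc1 lower (-0.85 ± 0.29, but -0.02, adjusted p = 0.838, with the higher floor) at day 7. The Rock1 call ended without any 1 of white day 7 arrays 36, 39, 40 and 44 or white day 4 arrays 37, 38, 41, 42, 45 and 51 (adjusted p at most 0.0983), and the Nfatc1 call without any 1 of white day 7 arrays 39, 40, 43 and 44 or white day 4 arrays 33, 34, 41, 42 and 45 (adjusted p at most 0.0981).

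**Figure D5:**
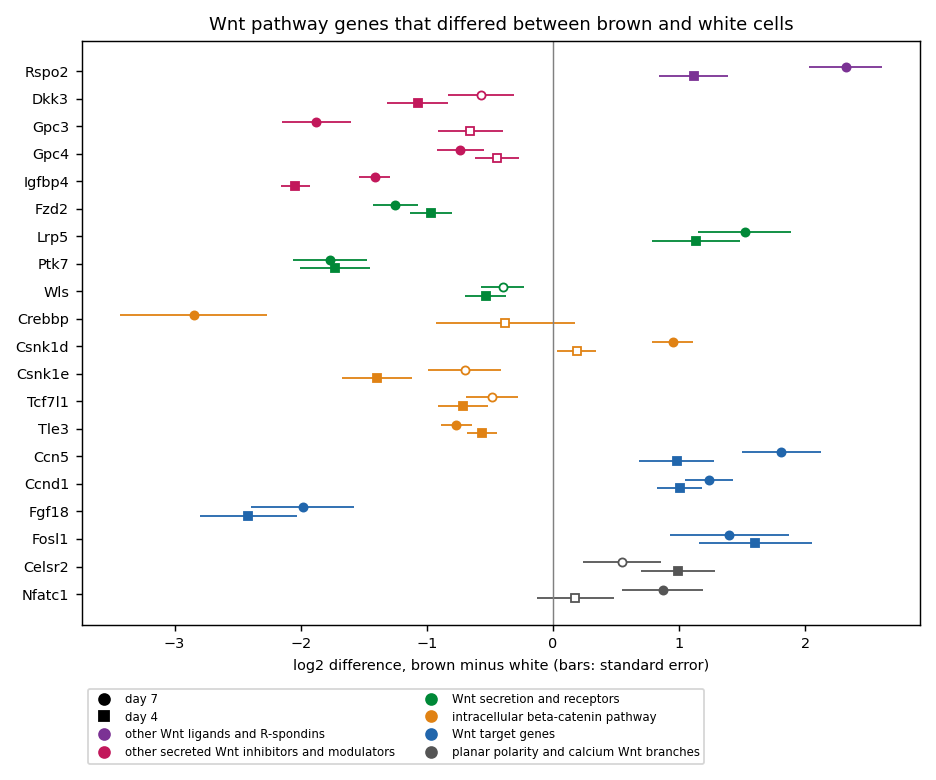
Log2 difference, brown minus white, of the Wnt pathway genes named for a difference between the cell types, at day 7 (circles) and day 4 (squares), with standard errors as bars, filled where the adjusted p is below 0.05, and coloured by list. Rspo2, Lrp5, Ccnd1, Ccn5 and Fosl1 lie right of 0, and Igfbp4, Gpc3, Fzd2, Ptk7 and Fgf18 left of 0.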

How the data were processed

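The authors deposited linear signal intensities for 12488 probe sets on 24 arrays. Per the submitters' processing notes the tool was MAS5, with a version not given in the sources used here. Total RNA was extracted with Trizol and copied into biotin-labelled cRNA in a single round, per the labels' protocols. The deposited 2% trimmed means were already close to 150 (150.1 on every array), and array medians ran from 41.9 to 59.0. Arrays carry no read depth, and precision is limited by how many there are.

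Each array was scaled to a trimmed mean of 150, signals below 8.21, the 20th percentile over all arrays, were raised to it, and log2 was taken. After 66 control probe sets and dim probe sets were left out, 8397 remained, with 1.56% of values at the floor. One limma model (version 3.58.1, R 4.3.3) with the 4 groups, 20 residual degrees of freedom and an intensity trend gave the contrasts, with Benjamini-Hochberg adjustment over all tested probe sets and a threshold of 0.05. The script was tested on simulated data.

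Gene symbols are those of the platform annotation, possibly outdated: 10855 probe sets carry 1 symbol, 396 several and 1237 none. By gene identifier 10839 were found in the reference gene table, and 0 symbols were updated. Named are all members, up to 4 called genes per pathway list and comparison with the largest change (the probe set of highest mean signal per gene), and the 3 genes closest to each tested member. The members and lists were chosen with earlier results of these data known. Alternatives tried were other scalings, floors and filters, array weights, no intensity trend, only the compared groups, the Gapdh ratio as a covariate, and left-out arrays.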

Additional observations from a re-analysis of the deposited data

Results flagged for a closer look

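In 33 groups of array values with more than 3 arrays and any value above the floor, 7 held an array far from the rest of its group, a gap that chance gives in about 1 of 20 groups. That rate does not hold for 4 of the 7 (Wnt4 and Rspo1 on brown day 4 array 19, Wnt10b 92750_s_at on white day 7 array 39 and Wnt11 on white day 7 array 40), where all other arrays of the group had been raised to the floor. Nor does it hold for Wnt5a on brown day 7 array 11, with 3 of 5 arrays at the floor. The same is true of Wnt11 on white day 4 array 51, with 5 of 8 arrays at the floor. Wnt4 stood out on white day 4 array 41 (27.1, the others 129.6 to 280.4) and on brown day 4 array 19 (8.57, the others 2.998 to 5.22 and at the floor). Brown day 4 array 19 also stood out for Rspo1 (15.2, the others 0.799 to 1.30). Among the dim ligands, Wnt5a stood out on brown day 7 array 11 (13.4, the others 4.65 to 8.88), Wnt10b 92750_s_at on white day 7 array 39 (11.2, the others 2.78 to 5.28), and Wnt11 on white day 4 array 51 (22.8, the others 4.48 to 12.8) and white day 7 array 40 (11.1, the others 2.61 to 6.05).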

How the results depend on the processing

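The counts of members called kept within 1.5 times of the reported count in 56 of 59 other settings. The white day 7 against day 4 count was 1 with the stricter filter (Frzb was not tested there) and 0 with the Gapdh ratio as a covariate, and the brown against white count at day 7 was 3 with that covariate. Leaving out each array in turn gave counts of 0 to 0 in brown cells by day, 2 to 2 in white cells by day, 5 to 5 between brown and white cells at day 4, 4 to 5 at day 7, and 0 to 0 for the difference of the changes. The counts by day in brown cells and for the difference of the changes include Wnt4, Rspo1 and Frzb, which cannot be read there. Signs turned in differences that passed no test. The difference of the changes of Rspo1 was 0.0139 with the higher floor and 0.0434 with the covariate, and that of Wnt10b 0.15 with the covariate and 0.0777 without white day 4 arrays 45 and 51. Nearly all brown arrays had Rspo1 at the floor, so the sign of its difference of the changes has no reading. The Rspo1 day difference in white cells was 0.0131 with array weights. With single arrays left out, Rspo1 ranged from -0.12 to 0.0890 between the white days and from -0.27 to 0.0139 in the difference of the changes, Sfrp1 from -0.0267 to 0.26 and Sfrp2 from -0.39 to 0.0677 between the brown days, and Sfrp2 from -0.0118 to 0.45 in the difference of the changes. The cause was not tested. Of 49 calls of pathway genes, 24 were lost with the covariate and 0 to 7 in each other setting. No paired analysis was made, because the groups share no array numbers and no label says which arrays belong to the same preparation.

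Limits are the floor, which sets the size of the brown minus white differences of Wnt4, Rspo1 and Frzb, single probe sets for 7 of the 8 genes, signals of Wnt5a, Wnt10b and Wnt11 near background, and unknown independence of the arrays.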
